A study of Mus musculus with 9 samples.

Results

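The fibroblast growth factor (FGF) receptors and co-receptors were followed here as 7 genes, chosen by name from the 46095 gene symbols of the count table. They are the 4 receptor tyrosine kinases Fgfr1, Fgfr2, Fgfr3 and Fgfr4, the receptor-like gene Fgfrl1, the co-receptor Klb (β-Klotho) and the adaptor Frs2. RNA-seq was performed on intestinal epithelial cells (IECs) taken from the colon by EDTA-based isolation. The mice carried floxed alleles on a C57BL/6j background with Villin-Cre, which drives recombination in the intestinal epithelium. In Smad4 Vil-KO mice (n = 4) Smad4, the shared mediator of TGF-β signalling, was deleted, and the other genotype, Smad4 Vil-KO;Setd2 Vil-KO (n = 5, double-knockout below), had also lost Setd2, whose product trimethylates histone H3 at K36. Both genotypes thus share the Smad4 deletion by label, and all mice received the carcinogen azoxymethane (AOM, 10 mg/kg, at 8 weeks of age) and the colitis-inducing agent dextran sodium sulphate (DSS, 2%, 1 course), with collection at 10 days of treatment. The comparison asked how the additional loss of Setd2 changed these genes in Smad4-deficient epithelium.

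FGFs signal by bringing receptor tyrosine kinases together at the cell surface. Paracrine FGFs need heparan sulphate as a cofactor, whereas endocrine FGFs such as FGF15 (the mouse counterpart of human FGF19) and FGF21 need a Klotho protein. Activated receptors phosphorylate FRS2, which recruits GRB2 and SOS and feeds the RAS/ERK cascade. In the gut, epithelial FGFR2 in its IIIb form answers mesenchymal FGF7 and FGF10, FGFR3 has been linked to crypt cells, and FGF15 from the ileal epithelium acts on KLB and FGFR4 in the liver to restrain bile acid synthesis. Counts per gene cannot separate the IIIb and IIIc splice forms of a receptor.

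The libraries held between 12487129 and 17120202 counts, and 1 count was worth 0.0593 to 0.0793 CPM (counts per 1000000 counts of a library, with TMM scaling). Setd2 had 99.0 to 119.9 CPM in the Smad4 Vil-KO libraries and 53.8 to 86.9 CPM in the double-knockout libraries, without overlap (log2 fold change -0.77, SE 0.14, adjusted p = 0.00756). Double-knockout libraries 2 and 5 had the most Setd2 of their genotype, at 86.9 and 75.9 CPM against 53.8 to 57.7 CPM in the other 3. Smad4, labelled as deleted in both genotypes, had 92.6, 54.2, 54.3 and 55.3 CPM in Smad4 Vil-KO libraries 1 to 4 and 59.95, 113.7, 38.2, 40.4 and 98.6 CPM in double-knockout libraries 1 to 5. Smad4 Vil-KO library 1 and again double-knockout libraries 2 and 5 held more Smad4 RNA than the other 6 libraries (at most 59.95 CPM), and no library with intact Smad4 was analysed for comparison. The counts cover the whole gene, so exons outside a deleted part still contribute, and these levels do not settle whether the deletion was complete in a library. The members were therefore also fitted without those 3 libraries, an alternative chosen after seeing the data that leaves 3 libraries of each genotype. The 8 markers of epithelium summed to 11519 to 14173 CPM, against 0.707 to 3.74 CPM for the 7 markers of smooth muscle and 3.48 to 6.04 CPM for the 8 of endothelium. The 8 markers of enteric neurons and glia summed to 3.92 to 7.14 CPM, and 1 of them, the glial gene Sox10, was at 0 in every library. The 12 leukocyte markers were higher, at 58.3 to 179.5 CPM. Small intestinal enterocyte markers were also present, at 1531 to 1845 CPM in Smad4 Vil-KO and 2150 to 3311 CPM in double-knockout libraries, and 7 of the 12 tested were called higher, against 6.76% of all genes tested. In Smad4 Vil-KO libraries most of this sum came from Mgam (787 CPM on average), Clec2h (362), Fabp2 (214) and Apob (188), while the intestinal genes Sis (2.77 CPM), Enpep (1.16) and Fabp1 (0.0758) were low and Apoa4 was at 0. In double-knockout libraries these 4 had means of 155, 65.3, 4.18 and 11.1 CPM. The Apoa4 mean came almost wholly from libraries 1 and 2 (272, 528, 1, 7 and 0 counts in double-knockout libraries 1 to 5), and the gene was not tested. Mgam and Apob had means of 1375 and 342 CPM in double-knockout libraries, whereas Clec2h (346 CPM) and Fabp2 (228 CPM) differed little. Y-linked genes had 3857 to 4907 counts in double-knockout libraries 1, 2 and 5 and 0 to 28 counts in the other 6 libraries (called libraries without Y-linked counts below), so sex was not balanced between the genotypes. All Smad4 Vil-KO libraries were without Y-linked counts. Fits with a term for Y-linked counts therefore compare them with double-knockout libraries 3 and 4 alone, as do fits of the libraries without Y-linked counts. These kinds of fit are not separate checks. The labels number the libraries without naming their mice, so p-values measure only the spread between these libraries. Also, in bulk RNA fewer cells of a type cannot be told apart from less RNA per cell.

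Among the 7 genes, Fgfr2 fell and Fgfrl1 rose in the double-knockout IECs. Fgfr3, Fgfr4 and Klb had lower means that did not pass the test, Frs2 was nearly level, and Fgfr1 had too few counts to be tested with the others. Of the 6 genes tested, 1 was called lower and 1 higher at an adjusted p under 0.05 (quasi-likelihood test of edgeR, Benjamini-Hochberg adjusted across the 14593 genes kept), or 33.3%, against 13.3% of all genes tested (6.54% lower and 6.76% higher). At an unadjusted p under 0.05, 3 of the 6 were lower and 1 was higher, against 15.3% of all genes tested in each direction. Without the 3 libraries with the most Smad4, Fgfr2 (log2 fold change -0.74, adjusted p = 0.0333) and Fgfr3 (-0.72, adjusted p = 0.0432) were called lower, Fgfrl1 was not called (0.46, adjusted p = 0.0759), nor was Klb (-1.89, adjusted p = 0.0724). The median log2 fold change of the 6 was -0.49, beside -0.00059 over all genes tested. Fgfr2 and Fgfrl1 were also the members whose libraries did not overlap between genotypes, a pattern seen in 8.87% of all tested genes for lower and 8.34% for higher values.

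**Figure D1:**
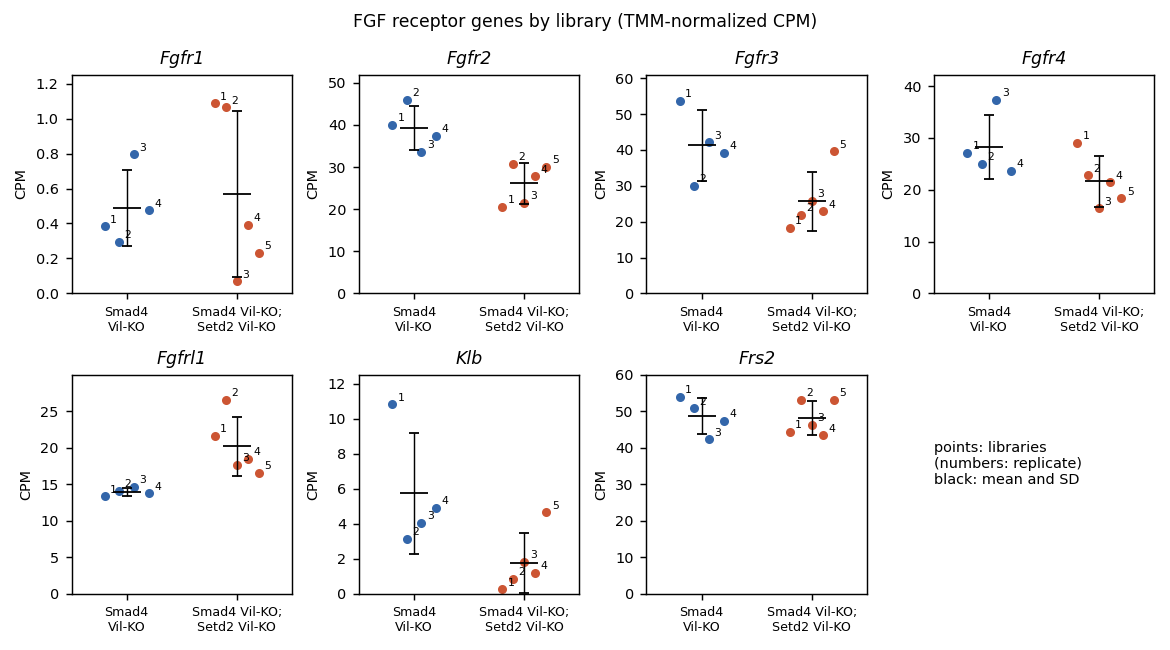
Expression of the 7 FGF receptor and co-receptor genes in each library, in TMM-scaled CPM on a linear axis from 0. Points are libraries numbered by replicate (4 Smad4 Vil-KO, 5 double-knockout) and black lines give the mean and SD, and the points of Fgfr2 and Fgfrl1 are fully separated between genotypes while those of Fgfr3 and Klb overlap through double-knockout library 5.

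To place the members beside each other, CPM were divided by the length of each gene's longest transcript in kilobases (kb). In Smad4 Vil-KO IECs, Fgfr3 (9.72 ± 2.30 CPM per kb, SD, n = 4), Fgfr2 (8.87 ± 1.17), Fgfr4 (8.51 ± 1.87) and Frs2 (7.58 ± 0.777) came first, followed by Fgfrl1 (5.98 ± 0.232), Klb (1.62 ± 0.980) and Fgfr1 (0.0969 ± 0.0433). The first 4 had overlapping ranges and cannot be ordered, but the ranges of Fgfrl1, Klb and Fgfr1 were separate from them and from each other. In double-knockout IECs the order of the means was Fgfrl1 (8.66 ± 1.73 CPM per kb, SD, n = 5), Frs2 (7.49 ± 0.735), Fgfr4 (6.50 ± 1.46), Fgfr3 (6.06 ± 1.94), Fgfr2 (5.90 ± 1.09), Klb (0.494 ± 0.484) and Fgfr1 (0.113 ± 0.0946). Here each neighbouring pair overlapped in range except Fgfr2 and Klb. Fgfrl1 thus moved from below the 3 abundant receptor kinases to the highest mean, although its range of 7.11 to 11.4 CPM per kb still overlapped those of Frs2, Fgfr4 and Fgfr3. The top rank depends on the length used. With the mean transcript length, Frs2 (19.8 CPM per kb) was above Fgfrl1 (16.7) in double-knockout IECs.

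The summed level of the 4 receptor kinases was 29.9, 25.03, 28.9 and 24.9 CPM per kb in Smad4 Vil-KO libraries 1 to 4 and 17.9, 19.2, 15.9, 18.2 and 21.7 CPM per kb in double-knockout libraries 1 to 5. The double-knockout libraries were all below the Smad4 Vil-KO libraries (18.6 ± 2.11, n = 5, against 27.2 ± 2.60, n = 4), and the sum was not tested. The makeup of this sum differed less. Fgfr2 made up 33.0% ± 6.48 of it in Smad4 Vil-KO and 31.7% ± 3.99 in double-knockout IECs, Fgfr3 35.5% ± 5.86 and 32.4% ± 7.998, Fgfr4 31.2% ± 5.26 and 35.3% ± 8.64, and Fgfr1 0.354% ± 0.144 and 0.607% ± 0.515. Each share overlapped between genotypes. These shares take one transcript length for each gene and would shift if the transcripts in use were shorter.

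**Figure D2:**
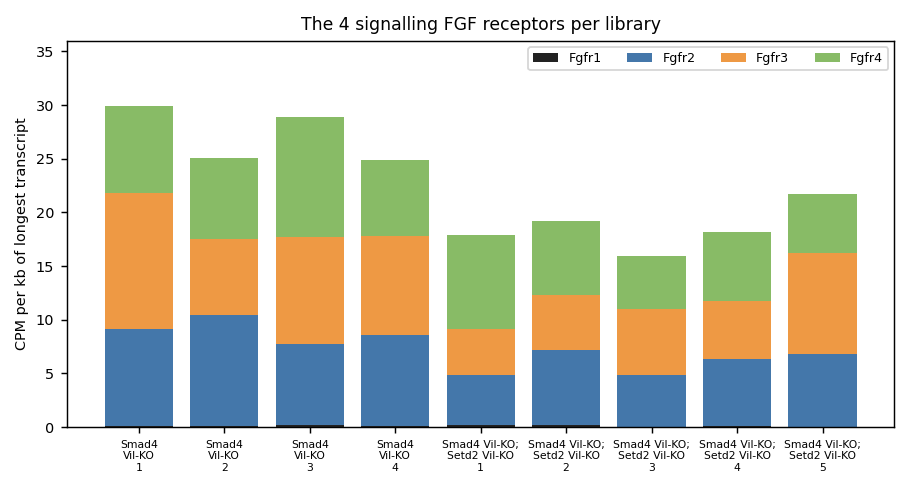
Stacked levels of Fgfr1, Fgfr2, Fgfr3 and Fgfr4 in each library, in CPM per kb of the longest transcript on a linear axis from 0. The sums run from 24.9 to 29.9 in the 4 Smad4 Vil-KO libraries and from 15.9 to 21.7 in the 5 double-knockout libraries, and Fgfr1 is barely visible at the base of each bar.

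The stretches just upstream of the start sites of Fgfr2, Klb, Fgfr3 and Fgfrl1 are shown because these are the 3 members with the lowest fitted fold changes and the 1 that rose, and they differed widely in CpG content. Each line gives the 250 bases upstream of a RefSeq start site, 5′ to 3′ on the gene's strand, on GRCm38.p6 (the assembly behind mm10), with CpG dinucleotides in capitals.
Fgfr2, chr7:130266809-130267058, minus strand: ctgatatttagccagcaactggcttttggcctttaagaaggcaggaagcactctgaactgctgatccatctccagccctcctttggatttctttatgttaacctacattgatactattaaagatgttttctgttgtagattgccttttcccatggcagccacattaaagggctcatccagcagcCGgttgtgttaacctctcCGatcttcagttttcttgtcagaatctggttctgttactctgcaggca
Klb, chr5:65348161-65348410, plus strand: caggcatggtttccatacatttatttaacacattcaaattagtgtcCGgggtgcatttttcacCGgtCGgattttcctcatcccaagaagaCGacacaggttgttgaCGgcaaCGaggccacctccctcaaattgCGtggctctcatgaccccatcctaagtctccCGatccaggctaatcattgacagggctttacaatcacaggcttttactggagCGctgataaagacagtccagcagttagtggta
Fgfr3, chr5:33721474-33721723, plus strand: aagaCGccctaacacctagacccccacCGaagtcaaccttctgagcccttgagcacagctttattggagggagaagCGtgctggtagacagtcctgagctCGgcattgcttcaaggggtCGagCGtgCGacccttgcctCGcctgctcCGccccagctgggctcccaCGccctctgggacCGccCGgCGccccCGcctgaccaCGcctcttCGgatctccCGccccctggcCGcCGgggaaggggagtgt
Fgfrl1, chr5:108693979-108694228, plus strand: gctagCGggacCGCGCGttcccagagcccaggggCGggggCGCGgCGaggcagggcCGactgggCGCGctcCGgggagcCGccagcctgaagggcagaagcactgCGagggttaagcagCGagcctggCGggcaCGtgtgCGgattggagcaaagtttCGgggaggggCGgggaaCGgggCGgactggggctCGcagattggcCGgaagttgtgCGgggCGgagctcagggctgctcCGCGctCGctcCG
Fgfr2 held 2 CpGs and Klb 9, whereas Fgfr3 held 19 and Fgfrl1 30, against a median of 6 (quartiles 2 and 16) over 32851 such windows. The GC content was 44.0% for Fgfr2, 48.0% for Klb, 66.8% for Fgfr3 and 73.6% for Fgfrl1. The GC box letters GGGCGG, searched on both strands, occurred 3 times in the Fgfr3 window and 4 times in that of Fgfrl1, were not found in those of Fgfr2 and Klb, and are held by 32.7% of all windows. TATAAA (12.4% of windows) and the nuclear receptor half-site AGGTCA (14.0%), searched in the same way, were in none of the members' windows. The windows of Frs2 and Fgfr4 held 19 and 15 CpGs, a second Fgfr3 window held 24, and Fgfr1 had no entry in the table used.

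Fgfr2 encodes the main epithelial receptor for FGF7 and FGF10. The gene lies on chromosome 7 from 130162451 to 130266808 on the minus strand. It had 40.1, 46.0, 33.6 and 37.5 CPM in Smad4 Vil-KO libraries 1 to 4 and 20.5, 30.8, 21.5, 27.8 and 30.1 CPM in double-knockout libraries 1 to 5. The highest double-knockout library was below the lowest Smad4 Vil-KO library. Fgfr2 fell from 39.3 ± 5.20 to 26.1 ± 4.82 CPM (SD, n = 4 and 5), a log2 fold change of -0.59 (SE 0.15, 95% interval -0.91 to -0.27, adjusted p = 0.0242). The call was lost without Smad4 Vil-KO library 1 (adjusted p = 0.0642), 2 (0.0734) or 4 (0.0506) and with a term for Y-linked counts (0.0587), with log2 fold changes of -0.65 to -0.51 over the libraries left out. It was kept in the libraries without Y-linked counts, a fit that rests on the same double-knockout libraries as that term.

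Fgfr3 encodes a receptor kinase found in crypt epithelium and lies on chromosome 5 from 33721724 to 33737068 on the plus strand. Its level was 53.7, 29.96, 42.1 and 39.2 CPM in the Smad4 Vil-KO libraries, compared with 18.3, 21.9, 25.9, 22.8 and 39.6 CPM in the double-knockout libraries. Double-knockout libraries 1 to 4 were below all Smad4 Vil-KO libraries, and library 5 was within their range. The means were 41.2 ± 9.78 and 25.7 ± 8.24 CPM, with a log2 fold change of -0.68 (SE 0.22, 95% interval -1.17 to -0.19) that did not pass the test. The adjusted p of the edgeR fit was 0.0659, beside an unadjusted p under 0.05. Without double-knockout library 5 the log2 fold change was -0.88 and the adjusted p was 0.00924, and without Smad4 Vil-KO library 1 they were -0.53 and 0.186. The adjusted p was also under 0.05 with DESeq2 (0.0259), limma-voom with quality weights (0.0411), no filter on low counts (0.0444) and when the 3 libraries with Y-linked counts were left out (0.0300), so the call for Fgfr3 turned on these choices.

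Fgfr4, the receptor kinase that pairs with KLB to bind FGF15, lies on chromosome 13 from 55152818 to 55168759 on the plus strand. The Smad4 Vil-KO libraries had 27.1, 25.04, 37.3 and 23.6 CPM and the double-knockout libraries 29.0, 22.8, 16.4, 21.4 and 18.3 CPM. Double-knockout library 1 was higher than all but 1 Smad4 Vil-KO library, so the groups overlapped. The log2 fold change of -0.39 (SE 0.18, 95% interval -0.79 to 0.01) did not pass the test (adjusted p = 0.177), nor did it under any of the 19 alternatives run. Its value was -0.52 to -0.22 over the libraries left out.

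Fgfr1, which is mainly a mesenchymal receptor and is the partner of KLB for FGF21, lies on chromosome 8 from 25518759 to 25575718 on the plus strand. It had 17, 15, 1, 5 and 3 counts in the double-knockout libraries, against 6, 5, 13 and 6 in those of Smad4 Vil-KO mice, or 0.0698 to 1.09 CPM over the 9 libraries. Double-knockout libraries 1 and 2 were the highest and the other 3 were within or below the Smad4 Vil-KO range. The gene fell below the expression filter, and the difference in mean log2(CPM + 1) of 0.03 gave p = 0.873 in a two-sided exact permutation test. The 10 fibroblast markers summed to 27.6 to 46.6 CPM in Smad4 Vil-KO and 33.8 to 83.9 CPM in double-knockout libraries. Of the 8 tested, 0 were called (13.3% of all genes were), and the median log2 fold change was 0.61. At an unadjusted p under 0.05 2 of the 8 were higher, where 15.3% of all genes were. Pdgfra, too low to be tested, had 1, 2, 4 and 3 counts in Smad4 Vil-KO libraries 1 to 4 and 47, 23, 12, 5 and 1 counts in double-knockout libraries 1 to 5. It was highest in double-knockout libraries 1 and 2, as was Fgfr1, while double-knockout library 3, the highest in the fibroblast sum, had 1 count of Fgfr1. The part of such cells in the Fgfr1 counts was not tested.

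Fgfrl1 binds FGFs but lacks the tyrosine kinase domain of the other receptors. The gene lies on chromosome 5 from 108694229 to 108706950 on the plus strand. It had 13.3, 14.1, 14.6 and 13.7 CPM in the Smad4 Vil-KO libraries, a narrow range, and 21.6, 26.6, 17.7, 18.5 and 16.6 CPM in the double-knockout libraries. All double-knockout libraries were above all Smad4 Vil-KO libraries. Fgfrl1 rose from 13.9 ± 0.539 to 20.2 ± 4.04 CPM (log2 fold change 0.54, SE 0.14, 95% interval 0.22 to 0.85, adjusted p = 0.0345). The direction was the same in every alternative run, but the call was lost without any one Smad4 Vil-KO library (adjusted p = 0.0794 to 0.0901), without double-knockout library 1 (0.0605) or 4 (0.0507), with the term for Y-linked counts (log2 fold change 0.37, adjusted p = 0.204) and among the 6 libraries without Y-linked counts (0.38, adjusted p = 0.0505). Within those 6 libraries, the 2 double-knockout libraries had 17.7 and 18.5 CPM, still above the 4 Smad4 Vil-KO libraries.

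**Figure D3:**
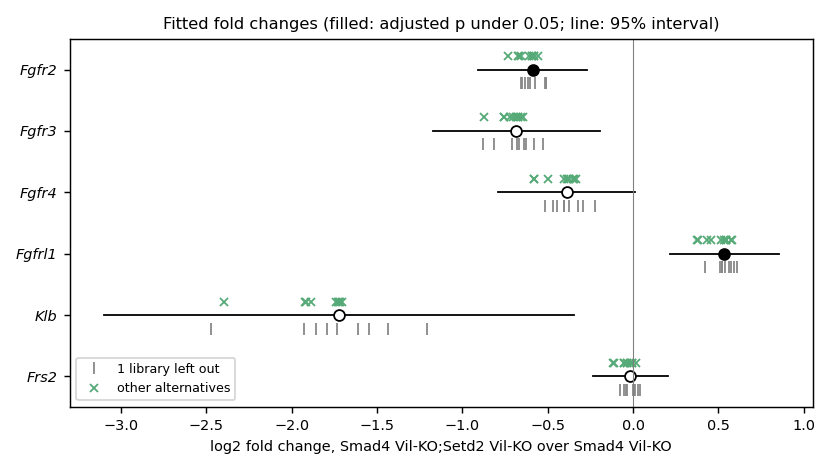
Log2 fold change of each tested member, double-knockout over Smad4 Vil-KO, with the 95% interval of the edgeR fit as a line, ticks for fits with 1 library left out and crosses for the other alternatives. The intervals of Fgfr2, Fgfr3 and Klb lie below 0 and that of Fgfrl1 above it, those of Fgfr4 and Frs2 include 0, and only Fgfr2 and Fgfrl1 pass after adjustment over all genes.

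Klb encodes β-Klotho, the co-receptor that lets FGFR4 and FGFR1 bind FGF15 and FGF21, and lies on chromosome 5 from 65348411 to 65386957 on the plus strand. It had 169, 53, 66 and 62 counts in Smad4 Vil-KO libraries 1 to 4 (10.8, 3.14, 4.05 and 4.91 CPM) and 4, 12, 26, 15 and 60 counts in double-knockout libraries 1 to 5 (0.256, 0.852, 1.81, 1.18 and 4.65 CPM). Double-knockout libraries 1 to 4 were below every Smad4 Vil-KO library, and library 5 was within their range. The means of 5.73 ± 3.47 and 1.75 ± 1.71 CPM gave the largest fitted difference among the members, a log2 fold change of -1.72 (SE 0.63, 95% interval -3.10 to -0.34). It did not pass the test, with an adjusted p of 0.0927 in the edgeR fit. It passed without double-knockout library 5 (-2.47, adjusted p = 0.0136), with DESeq2 (adjusted p = 0.0318) and among the 6 libraries without Y-linked counts (-1.92, adjusted p = 0.0345), and was -1.21 (adjusted p = 0.273) without Smad4 Vil-KO library 1.

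Klb and Fgfr3 varied between libraries along with markers of goblet cells, the mucus-secreting cells of the colon, a likeness picked out after the values were seen. The 9 goblet cell markers summed to 31104, 13666, 15470 and 11942 CPM in Smad4 Vil-KO libraries 1 to 4 and to 4405, 6329, 8596, 6769 and 13688 CPM in double-knockout libraries 1 to 5. Smad4 Vil-KO library 1 and double-knockout library 5 were the highest of their genotypes in this sum, in Klb and in Fgfr3, and double-knockout library 1 was the lowest of all 9 in the 3 measures. Of the 9 markers, the mucin gene Muc2 was called lower (6133 ± 1251 to 1999 ± 443 CPM, log2 fold change -1.62, adjusted p = 0.000542) and the other 8 were not called, so 11.1% of the list was called against 13.3% of all genes. The median log2 fold change of the list was -0.48. At an unadjusted p under 0.05 2 markers were lower (Muc2 and Spink4) and 1 was higher (Spdef, 0.648 and 2.62 CPM, with 132 of its counts in double-knockout library 2). Over all genes tested the share was 15.3% in each direction. At 2007 CPM of Muc2, double-knockout library 5 was below every Smad4 Vil-KO library (4827 CPM or more). Markers of deep crypt secretory cells had the same top libraries, with 2313 CPM in Smad4 Vil-KO library 1 and 2308 CPM in double-knockout library 5 against 396 to 1285 CPM in the rest, as did those of tuft cells, with 80.4 and 97.0 CPM against 16.9 to 63.3 CPM.

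Per 10000 CPM of goblet cell markers, Klb was 3.48, 2.30, 2.62 and 4.11 CPM in the Smad4 Vil-KO libraries, compared with 0.581, 1.35, 2.11, 1.74 and 3.39 CPM in the double-knockout libraries. Double-knockout libraries 1 to 4 stayed below all Smad4 Vil-KO libraries on this scale. Fgfr3 on the same scale was 17.3, 21.9, 27.2 and 32.8 CPM in the Smad4 Vil-KO libraries, compared with 41.5, 34.6, 30.1, 33.8 and 29.0 CPM in the double-knockout libraries. On that scale the double-knockout libraries were not lower, and 3 of them were above every Smad4 Vil-KO library. The goblet sum itself was lower in double-knockout libraries 1 to 4 than in every Smad4 Vil-KO library, so dividing by it raises the values there. The scale was chosen after the values were seen, and these ratios are a description only. The part of cell makeup in the results for Klb and Fgfr3 was not tested.

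**Figure D4:**
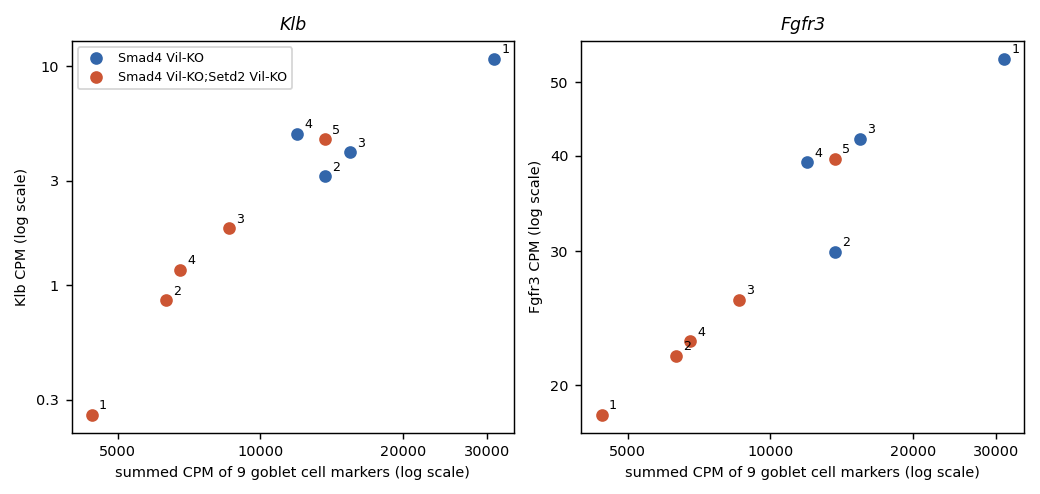
Klb and Fgfr3 (CPM, log scale) against the summed CPM of 9 goblet cell markers (log scale) in each library, with points numbered by replicate. The 2 genotypes form separate clusters apart from double-knockout library 5, which sits among the Smad4 Vil-KO libraries 2 to 4 in both panels.

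Frs2, the docking protein that carries the signal from the receptors to GRB2, lies on chromosome 10 from 117070127 to 117148474 on the minus strand. It had 54.0, 50.9, 42.4 and 47.4 CPM in the Smad4 Vil-KO libraries, compared with 44.4, 53.2, 46.3, 43.5 and 53.1 CPM in the double-knockout libraries. The ranges overlapped almost entirely. The log2 fold change was -0.02 (SE 0.10, adjusted p = 0.928), and its 95% interval of -0.24 to 0.20 covers only small differences in either direction.

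The genes whose profiles over the 9 libraries were nearest to those of the 2 called members were found among 13678 genes by the root mean square difference of centred log2 CPM. For Fgfr2 these were the calcium channel gene Orai3 (0.133), the FGF signalling inhibitor gene Il17rd (0.143) and the receptor phosphatase gene Ptprt (0.147), with log2 fold changes of -0.59, -0.47 and -0.71. Il17rd, also called Sef, did not pass the test (adjusted p = 0.121). For Fgfrl1 they were Fam76a (0.0817), Tmem170b (0.0839) and the transcription factor gene Tox (0.0947), with log2 fold changes of 0.41, 0.51 and 0.48.

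Around the receptors, 117 genes of the FGF pathway were listed, of which 89 were tested, 9 were called higher and 10 lower (21.3%, against 13.3% of all genes). Without the bile acid list, 13 of 82 tested genes were called (15.9%). Of the 18 secreted FGF ligands, 6 had no count in any library (Fgf4, Fgf6, Fgf8, Fgf20, Fgf22 and Fgf23) and 3 were tested. Fgf15 rose. It had 30, 51, 234, 298 and 32 counts in the double-knockout libraries (1.92 to 23.4 CPM), against 0, 14, 3 and 1 in those of Smad4 Vil-KO mice (0 to 0.831 CPM). All double-knockout libraries were higher, and libraries 3 and 4, which are without Y-linked counts, were far above the other 3 (log2 fold change 5.01, SE 1.06, adjusted p = 0.0131, and 0.0524 without Smad4 Vil-KO library 3). The log2 fold change was 6.60 without Smad4 Vil-KO library 2, which held 14 counts, 4.38 without double-knockout library 4 and 6.06 in the libraries without Y-linked counts. Fgf15 and its co-receptor gene Klb therefore differed in opposite directions in their fitted values, the first passing the test and the second not.

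Fgf1, a ligand of all FGF receptors, was the most abundant ligand by CPM at 36.9 ± 5.03 in Smad4 Vil-KO and 33.2 ± 5.26 in double-knockout IECs (log2 fold change -0.15, adjusted p = 0.475). Fgf9 had 2.33 ± 0.363 and 2.24 ± 0.755 CPM (-0.06, adjusted p = 0.912). The other ligands of interest were near the limit of detection. Fgf7 had 0 to 4 counts in the Smad4 Vil-KO libraries and 2 to 9 in the double-knockout libraries, Fgf10 had 0 to 2 in both, Fgf18 had 5 to 17 and 0 to 9, and Fgf2 and Fgf21 had 1 and 2 counts in all, each in a single Smad4 Vil-KO library. The Klotho gene Kl had no count, and its relative Lctl had 0 or 1. Among the intracellular FGFs, which do not bind these receptors, Fgf14 rose from 0 to 3 counts to 22 to 70 counts per library, which was at least 16.2-fold higher by CPM with a floor of 3 counts per library (adjusted p = 0.00102). The 9 enteroendocrine cell markers summed to 81.2 to 109.8 CPM in Smad4 Vil-KO and 174.8 to 259.0 CPM in double-knockout libraries, with 4 of 9 called higher (6.76% of all genes were). At an unadjusted p under 0.05, 5 were higher and 1 was lower, against 15.3% of all genes in each direction. The lower one was the peptide hormone gene Insl5 (10.1 and 6.50 CPM, adjusted p = 0.0668). The part of enteroendocrine cells in the result for Fgf14 was not tested.

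Of the 4 tested genes for klothos and FGF-binding cofactors, 1 fell (6.54% of all genes were called lower), and the median log2 fold change was 0.35. Flrt3, a membrane protein that binds FGF receptors, had 37.8, 39.7, 34.2 and 31.6 CPM in the Smad4 Vil-KO libraries, compared with 9.09, 10.9, 8.93, 9.66 and 17.2 CPM in the double-knockout libraries. No library overlapped, and the log2 fold change was -1.69 (SE 0.19, adjusted p = 0.000561). Fgfbp3, a carrier of secreted FGFs, had 0.611 and 1.22 CPM on average, without overlap, and did not pass the test (adjusted p = 0.0512). Of 19 tested genes for heparan sulphate proteoglycans and their enzymes, 4 fell and 1 rose (6.54% of all genes were called lower and 6.76% higher). The proteoglycan core genes Hspg2 (perlecan, 73.0 to 42.2 CPM, log2 fold change -0.79), Gpc4 (glypican 4, 82.6 to 55.6 CPM, -0.57) and Sdc4 (syndecan 4, 252 to 196 CPM, -0.36) were lower, as was the 3-O-sulphotransferase gene Hs3st1 (23.6 to 12.1 CPM, -0.97), with adjusted p of 0.000844, 0.00121, 0.0185 and 0.00663. The sulphotransferase gene Ndst1 was higher (48.5 to 64.3 CPM, 0.41, adjusted p = 0.0412), a call that was lost in 13 of 19 alternatives, among them those without any 1 of the 4 Smad4 Vil-KO libraries (adjusted p = 0.0859 to 0.101) and without double-knockout library 1 (0.0701), 2 (0.0731) or 5 (0.0524). Its log2 fold change was 0.14 both with a Y-linked term (adjusted p = 0.349) and in the libraries without Y-linked counts (0.240). The call of Sdc4 was lost without Smad4 Vil-KO library 1, 3 or 4 (adjusted p = 0.0526, 0.0548 and 0.0538).

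Downstream of the receptors, 5 of 53 tested genes in 4 lists were called (9.43%, against 13.3% of all genes). None of the 18 genes for receptor-proximal adaptors and effectors was called in the edgeR test (3 were higher at an unadjusted p under 0.05, where 15.3% of all genes were), and Grb2 had 86.1 ± 5.63 and 88.9 ± 5.34 CPM (log2 fold change 0.05, adjusted p = 0.7096). Of 12 RAS to ERK cascade genes, the RAF kinase gene Araf was lower (96.5 to 81.0 CPM, -0.25, adjusted p = 0.0388), which did not hold in 13 of 19 alternatives, including those without Smad4 Vil-KO library 1, 3 or 4 (adjusted p = 0.0956 to 0.115) and without double-knockout library 1, 2, 3 or 4 (0.0619 to 0.0749). Among 11 tested feedback inhibitors, the ERK phosphatase gene Dusp7 fell from 9.88 ± 1.31 to 4.47 ± 1.36 CPM (-1.14, SE 0.23, adjusted p = 0.00997), with 8.005 to 11.03 CPM in the Smad4 Vil-KO and 2.98 to 6.01 CPM in the double-knockout libraries. Spry4 had 7.80 and 4.64 CPM (-0.75, adjusted p = 0.0683), without overlap between genotypes. Spry1, Spry2 and Dusp6, which also restrain the cascade, had log2 fold changes of 0.31, -0.15 and -0.14 with adjusted p of 0.318, 0.336 and 0.309.

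Of 12 tested ERK-induced transcription factors, 2 fell and 1 rose, or 25% called against 13.3% of all genes. The ETS factor gene Etv5, a common readout of FGF signalling, fell from 40.2 ± 1.54 to 26.6 ± 4.34 CPM (-0.59, adjusted p = 0.0102), and Jun from 98.0 ± 7.44 to 70.3 ± 11.6 CPM (-0.48, adjusted p = 0.0246). The call of Jun was lost without Smad4 Vil-KO library 1, 3 or 4 (adjusted p = 0.0630 to 0.0701) and without double-knockout library 4 (0.0618), with a Y-linked term (0.0696) or the replicate block (0.0564). Etv1 rose from 0.733 to 1.77 CPM (1.26, adjusted p = 0.0327), although it lost the call in 10 of 18 alternatives, among them those without Smad4 Vil-KO library 2, 3 or 4 (adjusted p = 0.0841 to 0.104) and without double-knockout library 1 (0.0505) or 2 (0.0609). With a Y-linked term its log2 fold change was 0.81 (adjusted p = 0.221), as it was in the libraries without Y-linked counts (0.213). Etv4, a close relative of Etv5, had 27.3 and 19.7 CPM (-0.47, adjusted p = 0.133).

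In the bile acid arm, which FGF15 signalling serves, 5 of 7 tested genes rose and 1 fell (6.76% and 6.54% of all genes tested did). The bile acid uptake transporter gene Slc10a2 had 7.88 to 30.1 CPM in the Smad4 Vil-KO and 76.5 to 294 CPM in the double-knockout libraries (log2 fold change 3.46, SE 0.46, adjusted p = 0.00141). The ileal bile acid binding protein gene Fabp6 (4.59 to 33.0 CPM, 2.84), the basolateral exporter genes Slc51a (10.3 to 52.4 CPM, 2.34) and Slc51b (23.2 to 45.8 CPM, 0.98) and Malrd1 (6.32 to 36.6 CPM, 2.52), a gene that promotes FGF15 output, rose as well. The sterol hydroxylase gene Cyp27a1 fell (19.3 to 10.7 CPM, -0.85, adjusted p = 0.0297), a call lost without Smad4 Vil-KO library 1 (0.0662), 3 (0.105) or 4 (0.0664) and without double-knockout library 3 (0.0612), as well as with a Y-linked term (0.104). Cyp7a1 and Cyp8b1, the liver enzymes of bile acid synthesis, had no count. These genes are typical of the ileum, and the small intestinal markers given at the start were higher in the double-knockout libraries. Sis, one of those markers, had 2.77 and 155 CPM on average (adjusted p = 0.000985). The part of such cells in the results for Fgf15 and the bile acid genes was not tested.

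**Figure D5:**
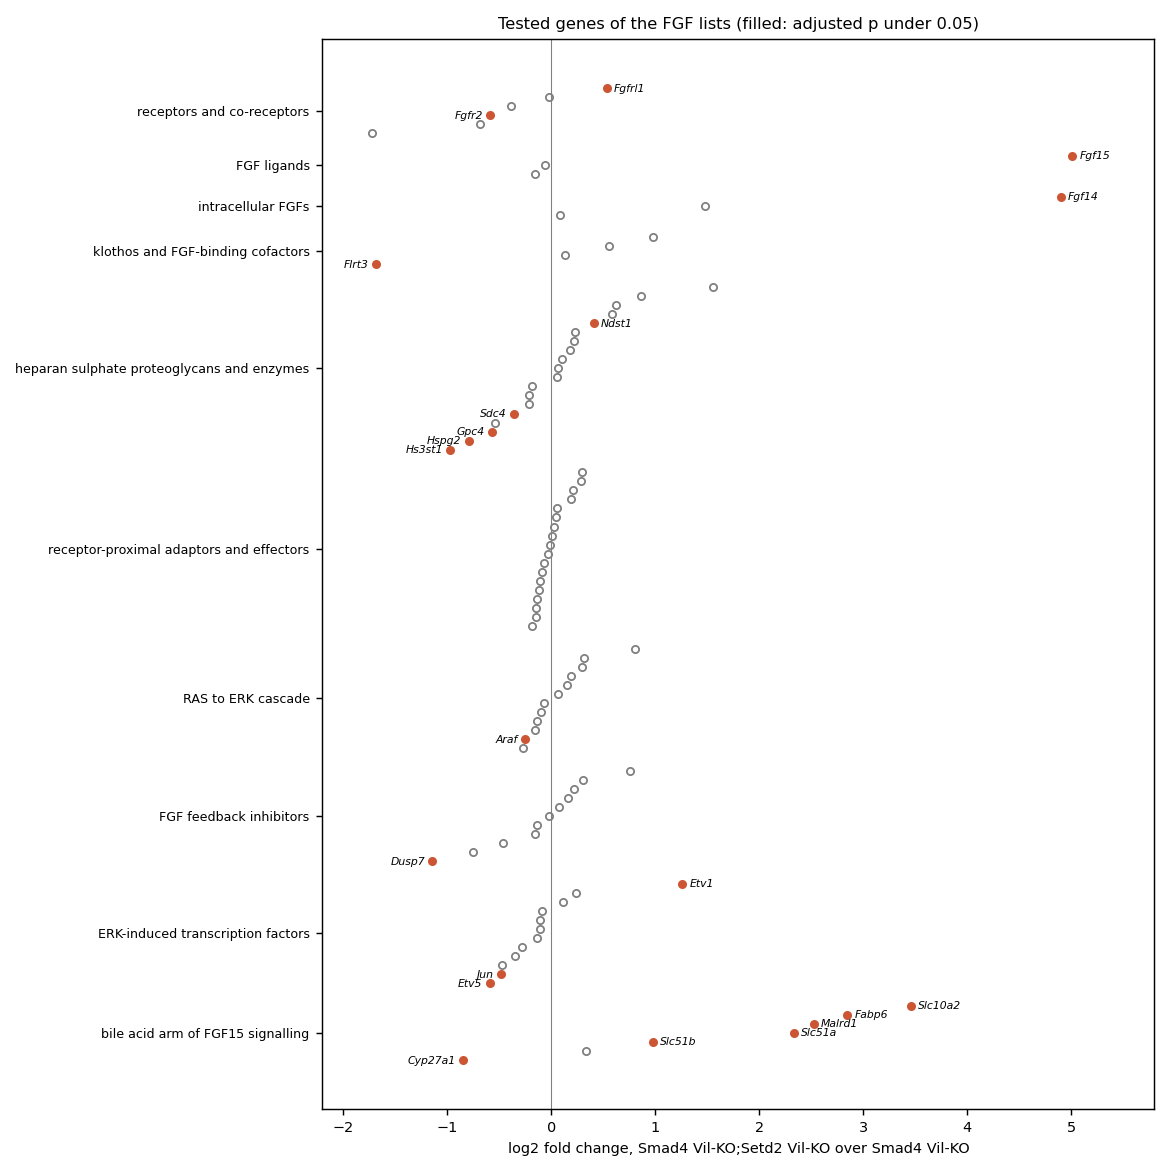
Log2 fold changes (double-knockout over Smad4 Vil-KO) of every tested gene in the receptor list and the 9 other FGF lists, in rows by list. Filled, named points have an adjusted p under 0.05, and the receptor-proximal adaptors cluster near 0 with no call whereas 5 bile acid genes and Fgf15 lie to the right.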

How the data were processed

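RNA-seq of colon IECs was analysed in 9 libraries (4 Smad4 Vil-KO, 5 double-knockout). The authors deposited whole-number counts per gene symbol, without normalization. The submitters' processing notes name HISAT2 2.0 and mm10, and the counting program, annotation and strand setting are not given in the sources used here. Groups came from the sample labels. The 27 rows named with dates were kept as genes without a name.

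Counts were tested with edgeR 4.0.16 (R 4.3.3): filterByExpr by genotype (14593 genes kept), TMM scaling, quasi-likelihood test and Benjamini-Hochberg adjustment over all genes kept, two-sided, threshold 0.05. The biological coefficient of variation was 21.2%. No 2 libraries agreed within sampling noise (chi-square per gene of 9.22 or more). On simulated counts 74.7% of genes changed by a log2 of 1 and 97% by a log2 of 2 were recovered, with 16 false calls of 14381. Lengths came from GENCODE M21, and coordinates (all 7 members) and upstream sequences (6 of 7 members) from RefSeq (GRCm38.p6). All 7 members, the FGF pathway genes called, preset ligands and signalling genes, and the 3 nearest profiles are named. Members and lists were chosen with earlier results of these data known. Alternatives were DESeq2 1.42.0, limma-voom with quality weights (limma 3.58.1), other scalings and filters, leaving out each library, a replicate block, handling of Y-linked counts and, chosen after seeing the data, leaving out the 3 libraries with the most Smad4. Depth limits are for counting error only.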

Additional observations from a re-analysis of the deposited data

Results flagged for a closer look

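In a search of 86 groups (43 genes in both genotypes) for a highest or lowest library far from the rest, 5 groups stood out, and chance gives about 1 in 20 groups. Smad4 was 92.6 CPM in Smad4 Vil-KO library 1 and 54.2 to 55.3 CPM in the other 3, and the double-knockout libraries had 38.2 to 113.7 CPM. Flrt3 was 17.2 CPM in double-knockout library 5, against 8.93 to 10.9 CPM in the other 4. Etv1 was 1.15 CPM in Smad4 Vil-KO library 1 and 0.534 to 0.634 CPM in the other 3. Fgf2 (0.0593 CPM, 1 count, Smad4 Vil-KO library 2) and Fgf21 (0.128 CPM, 2 counts, Smad4 Vil-KO library 1) were at 0 in the other libraries of that genotype, where any single count stands out, so these carry no weight.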

How the results depend on the processing

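Of 737 comparisons of 39 single genes with an alternative, 598 kept direction and call, 108 lost the call, 13 gained it and 18 reversed. Members called higher numbered 1 in the main test and 0 with the replicate block, the term for Y-linked counts and the libraries without Y-linked counts, and 0 without the 3 libraries with the most Smad4 (chosen after seeing the data). Members called lower numbered 1, against 3 with DESeq2, the replicate block and the libraries without Y-linked counts, 2 with limma-voom with quality weights, with no filter and without the 3 libraries with the most Smad4, and 0 when Y-linked counts entered as a term. Pathway genes called higher numbered 9, and 14 with DESeq2. All genes called numbered 1941 (13.3% of 14593 tested), and 2904 with DESeq2 (10.8% of 26890 tested), 2924 with limma-voom (20%) and 2930 without Y-linked libraries (19.4%). They numbered 1285 with the Y-linked term (8.81%), 847 without Smad4 Vil-KO library 3 (5.69%) and 2696 without double-knockout library 5 (18.6%). Leaving out 1 library gave 0 to 1 members higher, 0 to 3 lower, 6 to 14 pathway genes higher (14 without double-knockout library 5) and 6 to 11 lower (6 without Smad4 Vil-KO library 1, 3 or 4). The cause was not tested.

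Small values changed sign. Frs2 was 0.017 by library size alone (-0.075 to 0.042 over libraries left out). Smad4 was 0.13 in the main test, -0.18 with limma-voom, -0.14 with the replicate block, -0.71 with the Y-linked term, -0.70 without Y-linked libraries, -0.23 without the 3 libraries with the most Smad4, and -0.11 to 0.37 over libraries left out. With the Y-linked term and without those libraries, Fgf1 was 0.022 and 0.027, Fgf9 0.22 and 0.23, Grb2 -0.020 and -0.016, and Spry1 -0.095 and -0.089. Fgf9 was 0.064 with limma-voom and -0.21 to 0.085 over libraries left out, and Fgfr1 -0.082 to 0.16, with -0.048 without the 3 libraries with the most Smad4.

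With the mean transcript length, levels in Smad4 Vil-KO and double-knockout IECs were 0.217 and 0.253 CPM per kb for Fgfr1, 18.3 and 12.2 for Fgfr2, 18.9 and 11.8 for Fgfr3, 19.5 and 14.9 for Fgfr4, 11.5 and 16.7 for Fgfrl1, and 19.99 and 19.8 for Frs2, so Frs2 came first in both. Libraries of the same replicate number did not deviate together (correlations -0.10, -0.10, 0.02 and 0.09). This gave no sign of pairing by number but cannot exclude it, since paired mice need not deviate together. The replicate block gave adjusted p of 0.0272 for Fgfr3, 0.0448 for Klb and 0.0515 for Fgfrl1. Klb was not tested under the filter of 10 counts in every library, and a few counts per library limit Fgfr1 and most ligands.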
